A study of Mus musculus with 10 samples.

Results

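The Hox genes are the 39 homeobox genes of the Hoxa, Hoxb, Hoxc and Hoxd clusters, chosen here by symbol alone: the cluster letter followed by a number from 1 to 13. All 39 were among the 53801 genes measured by RNA-seq in mouse embryonic fibroblasts (MEFs), and 36 had a mean of at least 10 normalized counts over the 10 libraries and were tested. The MEFs were primary lines labelled C57BL/6 (substrain C57BL/6J in the methods) from embryos at day 13.5, grown from the body after head, liver and heart had been removed, so limb, trunk and tail mesenchyme were mixed in each line. The lines were 3 MIDEAS-/-, 3 MIDEAS+/+, 2 DNTTIP1-/- and 2 DNTTIP1+/+, each knockout with wild types of its own family. Both knockout alleles are small constitutive Cas9 deletions in exon 2 that bring a premature stop codon. Homozygous embryos thus carried the deletion in every cell from fertilization. MIDEAS and DNTTIP1 are the scaffold subunits of MiDAC, a complex that brings the histone deacetylases HDAC1 and HDAC2 to chromatin.

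Hox proteins are transcription factors that give cells their position along the head-to-tail axis and along the limb. The genes of a cluster are switched on in the order in which they lie, from paralog group 1, used nearest the head, to group 13, used at the tail and in the digits, and a paralog group holds the genes at the same place in different clusters. Fibroblasts grown from the body keep much of this code in culture, held by Polycomb and Trithorax chromatin proteins. The comparisons ask whether the code differed in cells that lacked either MiDAC subunit. In bulk RNA, fewer cells of a region and less RNA per cell cannot be told apart.

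The study calls the lines independent, while the labels name no embryo for any of them, and p-values measure the spread between these lines. The libraries held 12339970 to 19761295 recovered reads. Dnttip1, the targeted gene, had 197 and 173 normalized counts in DNTTIP1-/- lines, against 434 and 443 in DNTTIP1+/+ lines (log2 fold change -1.25, adjusted p = 0.0594 by limma). Elmsan1, which encodes MIDEAS, had 1038, 1728 and 1590.4 normalized counts in MIDEAS-/- lines, against 1272, 1332 and 1576 in MIDEAS+/+ lines, so its counts did not check the MIDEAS labels. In MIDEAS-/- line 1, 9.38% of reads fell on 10 genes, against 5.14% to 6.50% in the other libraries. The lines also differed in sex. Xist, which marks female cells, was at 0 and Ddx3y on the Y chromosome was high in line 1 of DNTTIP1-/- (1710.4 normalized counts), line 1 of DNTTIP1+/+ (1486) and line 1 of MIDEAS+/+ (1823). The other 7 lines had 3299 to 8016 normalized counts of Xist and at most 5.48 of Ddx3y.

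The MEFs expressed nearly the whole Hox code. On the mm10 build the Hoxa genes lie at chr6:52155590-52260880 on the minus strand, and the Hoxb genes at chr11:96194316-96368256, the Hoxc genes at chr15:102921103-103036852 and the Hoxd genes at chr2:74668310-74765142 on the plus strand. Per kilobase of exon, the scale on which levels of different genes are compared here, Hoxd13 had the highest mean over the 10 libraries at 412 normalized counts (215 to 583 in single libraries). Hoxb9 followed at 377 (273 to 514) and Hoxa10 at 291 (168 to 353). Hoxa5 had 242, Hoxc8 222 and Hoxc6 221, and the ranges of all 6 genes overlapped. Hoxa10, Hoxb9, Hoxc8 and Hoxd13 were the leading genes of their clusters. At the other end, the group 1 genes Hoxb1, which patterns the hindbrain, and Hoxd1 averaged 0.156 and 2.85 normalized counts without division by length and were not tested. Hoxd1 had 2.07, 3.32 and 5.93 in MIDEAS-/- lines, against 2.23, 0 and 0.782 in MIDEAS+/+ lines, and 0 and 0 in DNTTIP1-/- lines, against 6.33 and 7.8 in DNTTIP1+/+ lines, so both DNTTIP1-/- lines were at 0. Hoxd4 was listed at 0 in all 10 libraries, although its neighbours were measured. Its exons overlap those of Gm28230 (39.1% of its exon bases) and of Hoxd3 (13.2%) on the same strand and those of Hoxd3os1 on the other, and how such reads were assigned is not stated, so this 0 does not show absence.

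**Figure D1:**
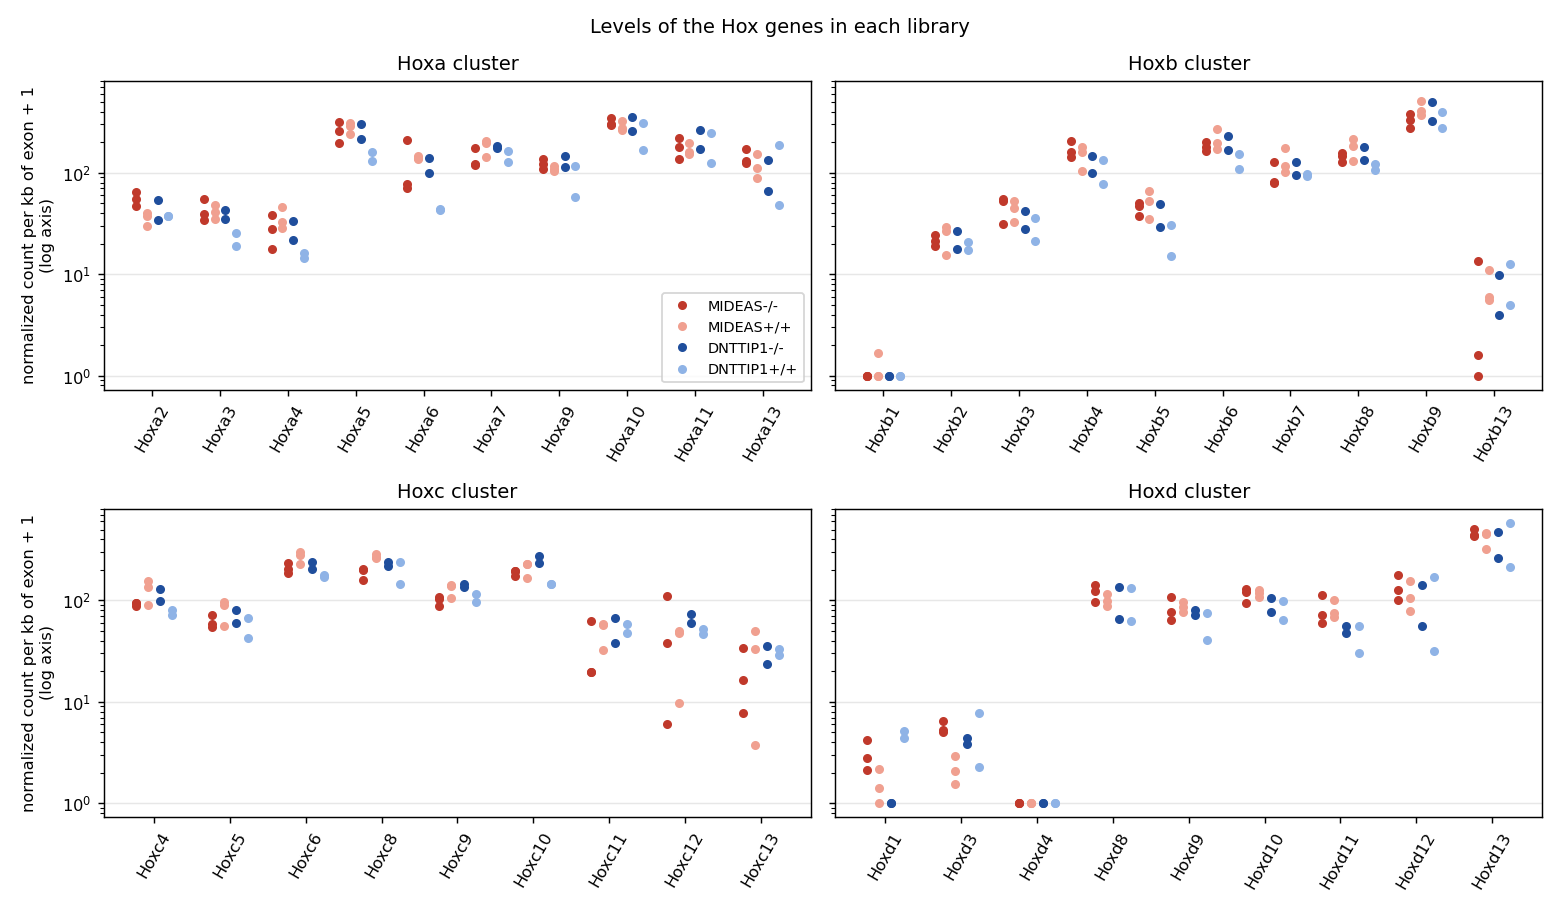
Levels of Hox genes in each library, as normalized counts per kilobase of exon plus 1 on a log axis; a panel is a cluster, genes run from group 1 to group 13, each point is a library, and within a gene the groups run MIDEAS-/-, MIDEAS+/+, DNTTIP1-/-, DNTTIP1+/+. Hoxd13, Hoxb9 and Hoxa10 reach the highest means (412, 377 and 291 per kilobase of exon), Hoxb1, Hoxd1, Hoxd3 and Hoxd4 lie near the bottom, and DNTTIP1+/+ lines are low for several Hoxa genes.

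Groups 9 to 13, which pattern the lumbar to tail region and the limb, made up 46.7% to 62.4% of the summed level per kilobase of exon in a library. Groups 5 to 8, used mainly in the thorax, made up 30.8% to 42.2%, and groups 1 to 4, used in the hindbrain and neck, 6.72% to 12.1%. The sum over the 39 genes was 4542, 4449.8 and 4089 in MIDEAS-/- lines, against 4653, 5014 and 4544 in MIDEAS+/+ lines. It was 4515 and 4453 in DNTTIP1-/- lines, against 4013 and 3092 in DNTTIP1+/+ lines. Thus line 2 of DNTTIP1+/+ had the lowest sum of the 10 libraries and line 2 of MIDEAS+/+ the highest, so the extremes lay within the wild types.

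The promoters of 4 genes on which the results turn are shown: Hoxa5 and Hoxa6, among the genes with the smallest p-values in DNTTIP1-/- lines, and Hoxd12 and Hoxd13, which separated the lines of the DNTTIP1 family. RefSeq (GRCm38.p6) windows of 300 bases around the gene start were matched for 22 of the 39 genes. Capitals mark CpG dinucleotides, whose density is a known feature of promoters that Polycomb binds.
Hoxa5 (chr6:52204538-52204837, minus strand): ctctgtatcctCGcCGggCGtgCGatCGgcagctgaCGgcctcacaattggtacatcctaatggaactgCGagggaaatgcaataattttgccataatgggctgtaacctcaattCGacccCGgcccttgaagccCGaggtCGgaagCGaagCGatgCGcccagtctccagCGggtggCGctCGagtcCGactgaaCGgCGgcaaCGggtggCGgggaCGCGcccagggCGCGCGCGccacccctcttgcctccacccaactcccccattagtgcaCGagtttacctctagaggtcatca
Hoxa6 (chr6:52208623-52208922, minus strand): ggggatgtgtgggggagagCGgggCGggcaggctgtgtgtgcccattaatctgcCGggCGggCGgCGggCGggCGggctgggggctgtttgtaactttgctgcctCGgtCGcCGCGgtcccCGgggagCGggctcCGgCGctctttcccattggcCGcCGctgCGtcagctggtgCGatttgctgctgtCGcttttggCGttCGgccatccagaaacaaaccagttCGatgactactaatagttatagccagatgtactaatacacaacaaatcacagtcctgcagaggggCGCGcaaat
Hoxd12 (chr2:74674763-74675062, plus strand): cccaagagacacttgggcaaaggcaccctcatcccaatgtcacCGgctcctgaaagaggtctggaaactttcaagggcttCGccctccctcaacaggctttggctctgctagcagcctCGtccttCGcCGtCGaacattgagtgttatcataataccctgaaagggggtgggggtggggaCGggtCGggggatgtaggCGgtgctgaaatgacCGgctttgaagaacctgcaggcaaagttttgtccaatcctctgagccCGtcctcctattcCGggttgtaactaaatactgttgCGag
Hoxd13 (chr2:74667975-74668274, plus strand): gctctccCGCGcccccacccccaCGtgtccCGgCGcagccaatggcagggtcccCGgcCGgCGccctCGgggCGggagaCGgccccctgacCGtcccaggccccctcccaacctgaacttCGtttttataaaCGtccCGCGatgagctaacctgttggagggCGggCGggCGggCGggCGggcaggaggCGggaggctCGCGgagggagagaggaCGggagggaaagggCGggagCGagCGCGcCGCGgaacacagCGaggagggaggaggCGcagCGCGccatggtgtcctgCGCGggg
Hoxd13 held 37 CpG, Hoxa5 29, Hoxa6 26 and Hoxd12 13, against a median of 7 in all 32841 promoter windows. Over the 24 Hox windows the median was 14.5 CpG, with 4 to 45 in single windows. The median GC content was 57.7% in the Hox windows and 52.7% in all windows. The letters TGATNNAT, read by Hox proteins bound with PBX, stood on either strand in 16.7% of the Hox windows and 8.85% of all windows, and TAATTA, a core read by homeodomains, in 8.33% and 5.29%. None of the 4 windows printed held either word.

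In MIDEAS-/- lines none of the 36 tested Hox genes passed an adjusted p under 0.1 by limma, where 5.65% of all 16227 tested genes did. Without adjustment, 2 were higher and 2 lower at p under 0.05, against 8.82% higher and 7.83% lower of all genes. Of the other tools, edgeR called 0 Hox genes, where it called 517 of all 16227 genes higher and 339 lower. DESeq2 called 1 Hox gene, which was lower, where it called 961 of all genes higher and 713 lower. The median log2 fold change of the 36 was -0.13, against -0.02 over all genes, and 13 were positive, against 46.4% of all genes. Without line 2 of MIDEAS+/+ the median was -0.03, with 16 positive. Negative values were most frequent in the Hoxc cluster, with 8 of 9 genes and a median of -0.38, and in groups 5 to 8, with 10 of 11. In the Hoxb cluster 7 of 9 genes were negative, with a median of -0.20. Hoxa had a median of 0.04 and Hoxd of 0.17. For 24 of the 36 the 95% interval lay within 1 of 0 on the log2 scale, so larger differences lay outside the intervals of these genes.

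Hoxc8 had the smallest p. This gene of the thoracic region had 575, 556 and 448 in MIDEAS-/- lines, against 758, 818 and 744 in MIDEAS+/+ lines, in normalized counts (log2 fold change -0.56, standard error 0.18, 95% interval -0.96 to -0.16, adjusted p = 0.143 by limma). All 3 MIDEAS-/- lines lay below all 3 MIDEAS+/+ lines, and Hoxc8 was the only Hox gene so placed (1 of 36, against 11.0% of all genes). In the DNTTIP1 family Hoxc8 had 681 and 615 in DNTTIP1-/- lines, against 669 and 411 in DNTTIP1+/+ lines. Line 2 of DNTTIP1+/+ thus lay below all MIDEAS-/- lines for Hoxc8. Hoxc6, its neighbour in the thoracic part of the cluster, had 557, 487 and 445 in MIDEAS-/- lines, against 673, 724 and 552 in MIDEAS+/+ lines, with an overlap between MIDEAS-/- line 1 and MIDEAS+/+ line 3 (log2 fold change -0.38, standard error 0.15, 95% interval -0.71 to -0.06, adjusted p = 0.213 by limma). Hoxc8 passed the threshold by DESeq2 on the recovered reads (adjusted p = 0.0709) and by limma with each family fitted apart (adjusted p = 0.0829). It did not pass by edgeR (adjusted p = 0.167). Nor did it by limma without any 1 MIDEAS line (adjusted p = 0.155 to 0.437). With all 5 wild-type lines as controls it had log2 fold change -0.34 (adjusted p = 0.469 by limma). Whether it passed also varied with which DNTTIP1 line was left out, although these lines enter its estimate of spread only.

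Hoxd3 and Hoxa2 were the 2 genes with all MIDEAS-/- lines above all MIDEAS+/+ lines, against 11.5% of all genes. Hoxd3, which shapes the first vertebrae of the neck, had 22.7, 18.0 and 16.8 in MIDEAS-/- lines, against 4.46, 8.18 and 2.35 in MIDEAS+/+ lines (log2 fold change 1.86, standard error 0.64, 95% interval 0.44 to 3.28, adjusted p = 0.167 by limma). In the DNTTIP1 family Hoxd3 had 14.4 and 12.03 in DNTTIP1-/- lines, against 5.27 and 28.3 in DNTTIP1+/+ lines (log2 fold change 0.07 by limma). Line 2 of DNTTIP1+/+ thus had the highest Hoxd3 value of the 10 libraries, above all MIDEAS-/- lines. These are few reads, and 53.1% of the exon bases of Hoxd3 are shared with Gm28230 on the same strand. Hoxa2, which patterns the second pharyngeal arch, had 113, 95.7 and 81.1 in MIDEAS-/- lines, against 70.2, 64.4 and 50.8 in MIDEAS+/+ lines (log2 fold change 0.63, standard error 0.28, 95% interval 0.01 to 1.26, adjusted p = 0.291 by limma). Hoxa2 did not overlap between the genotypes, and the nearest lines were MIDEAS-/- line 3 and MIDEAS+/+ line 1.

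DNTTIP1-/- lines gave mostly positive differences. None of the 36 Hox genes passed an adjusted p under 0.1 by limma, where 0.0308% of all genes did (0.0247% higher and 0.00616% lower). Without adjustment 6 were higher and 0 lower at p under 0.05, against 4.38% higher and 2.09% lower of all genes. By edgeR 0 were called, where 4 of all 16227 genes were called higher and 1 lower. By DESeq2 1 was called, Hoxc10 (adjusted p = 0.0306), where 157 of all genes were called higher and 49 lower. The log2 fold change was positive for 31 of 36, against 50.1% of all genes, with a median of 0.32, against 0.00 over all genes. It was positive for 10 of 11 genes of Hoxa, 8 of 9 of Hoxb, 7 of 9 of Hoxc and 6 of 7 of Hoxd. All 11 genes of groups 5 to 8 and all 9 tested genes of groups 1 to 4 were positive, whereas 5 of 16 genes of groups 9 to 13 were negative. In 12 genes both DNTTIP1-/- lines lay above both DNTTIP1+/+ lines and in 0 below, against 20.1% and 18.9% of all genes. Only 11 of the 36 intervals lay within 1 of 0 on the log2 scale, so with 2 lines a group larger differences were not excluded for most genes.

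Hoxc10, a gene of the lumbar region and hindlimb, had 442 and 525 in DNTTIP1-/- lines, against 275 and 274 in DNTTIP1+/+ lines, in normalized counts (log2 fold change 0.81, standard error 0.20, 95% interval 0.36 to 1.26, adjusted p = 0.349 by limma). The DNTTIP1+/+ lines were nearly equal and both DNTTIP1-/- lines lay well above them. In the MIDEAS family Hoxc10 had 374, 331 and 371 in MIDEAS-/- lines, against 313, 434 and 435 in MIDEAS+/+ lines. Hoxc10 shares 166 exon bases with Hoxc5 on the same strand. Hoxa5, needed for the lung and the neck-to-thorax border, had 401 and 569 in DNTTIP1-/- lines, against 244 and 301 in DNTTIP1+/+ lines (log2 fold change 0.82, standard error 0.26, 95% interval 0.24 to 1.39, adjusted p = 0.536 by limma). Hoxa6, its neighbour, had 85.5 and 121 in DNTTIP1-/- lines, against 38.0 and 37.0 in DNTTIP1+/+ lines (log2 fold change 1.42, standard error 0.48, 95% interval 0.35 to 2.49, adjusted p = 0.573 by limma). Hoxa3, which shapes thymus and parathyroid, had 206 and 255 in DNTTIP1-/- lines, against 108 and 148 in DNTTIP1+/+ lines (log2 fold change 0.85, standard error 0.29, adjusted p = 0.573 by limma). In these 4 genes the lower DNTTIP1-/- line stood above the higher DNTTIP1+/+ line.

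**Figure D2:**
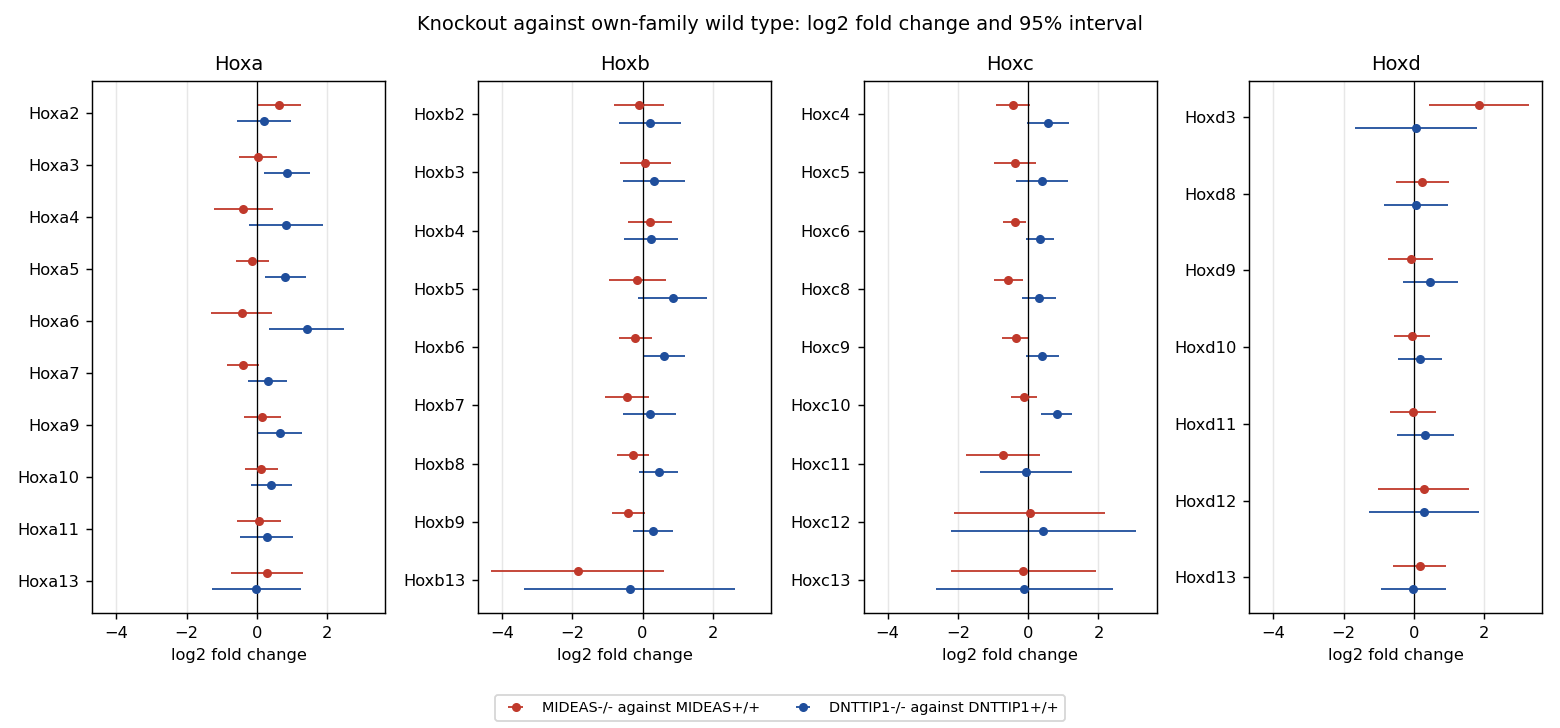
Log2 fold change (points) and 95% interval (bars, limma) of tested Hox genes in MIDEAS-/- against MIDEAS+/+ and DNTTIP1-/- against DNTTIP1+/+ lines, 1 panel a cluster. Points of the DNTTIP1 comparison lie right of 0 for most genes and those of the MIDEAS comparison left of 0 for most, most intervals include 0, and Hoxb13, Hoxc12 and Hoxc13 have the widest.

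The DNTTIP1+/+ lines had low Hox levels among the wild types. Set against the wild types of the MIDEAS family, DNTTIP1+/+ lines were lower in 29 and higher in 7 of 36 Hox genes, where 49.5% of all genes were higher, with a median log2 difference of -0.50, against 0.00 over all genes. None passed by limma, as in all genes (0%). At an unadjusted p under 0.05, 12 were lower and 0 higher, against 6.52% lower and 4.15% higher of all genes. By edgeR 0 Hox genes were called, as were 0 of all genes. DESeq2 called 3 Hox genes, all lower, where it called 136 of all 16227 genes lower and 131 higher. In 15 genes both DNTTIP1+/+ lines lay below all 3 MIDEAS+/+ lines and in 0 above, against 17.3% and 16.0% of all genes. This comparison and that of DNTTIP1-/- lines share the DNTTIP1+/+ libraries. With all 5 wild-type lines as controls, 24 of 36 Hox genes were positive in DNTTIP1-/- lines (median 0.08) and 22 of 36 in MIDEAS-/- lines (median 0.09), where 13 of 36 were with their own family's wild types.

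Hoxa5 had the smallest p between the wild types, with 244 and 301 in DNTTIP1+/+ lines, against 573, 546 and 452 in MIDEAS+/+ lines (log2 fold change -0.94, standard error 0.23, 95% interval -1.46 to -0.42, adjusted p = 0.4 by limma). Hoxa6 had 38.0 and 37.0 in DNTTIP1+/+ lines, against 121, 119 and 128 in MIDEAS+/+ lines (log2 fold change -1.68, standard error 0.44, 95% interval -2.66 to -0.71, adjusted p = 0.4 by limma). The Hoxa6 values within each wild-type group were close together and the groups lay apart. Hoxc6 had 410.2 and 425 in DNTTIP1+/+ lines, against 673, 724 and 552 in MIDEAS+/+ lines (log2 fold change -0.63, standard error 0.16, 95% interval -0.99 to -0.26, adjusted p = 0.4 by limma). Hoxa3 had 108 and 148 in DNTTIP1+/+ lines, against 241, 283 and 203 in MIDEAS+/+ lines (log2 fold change -0.92, standard error 0.27, 95% interval -1.51 to -0.33, adjusted p = 0.4 by limma). For all 4 genes the wild types did not overlap. Among knockout lines, Hoxa6 had 60.9, 182 and 67.3 in MIDEAS-/- lines, and only line 2 of these lay above both DNTTIP1-/- lines. Family and any difference in breeding or culture between the families cannot be told apart. Without line 2 of DNTTIP1+/+, 24 of 36 Hox genes were positive in DNTTIP1-/- lines, against 31 with it. The median there was 0.31, against 0.32 with it. Between the wild types 13 of 36 were positive without that line, against 7, and the difference between the knockout effects was positive for 11, against 5. Without line 1 of DNTTIP1-/-, 26 of 36 Hox genes were positive in DNTTIP1-/- lines (median 0.43). Between the wild types, 4 were positive without line 1 of DNTTIP1+/+ and 4 without line 1 of MIDEAS+/+, and the difference was positive for 8 without line 1 of DNTTIP1-/- and for 8 without line 1 of MIDEAS-/-.

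**Figure D3:**
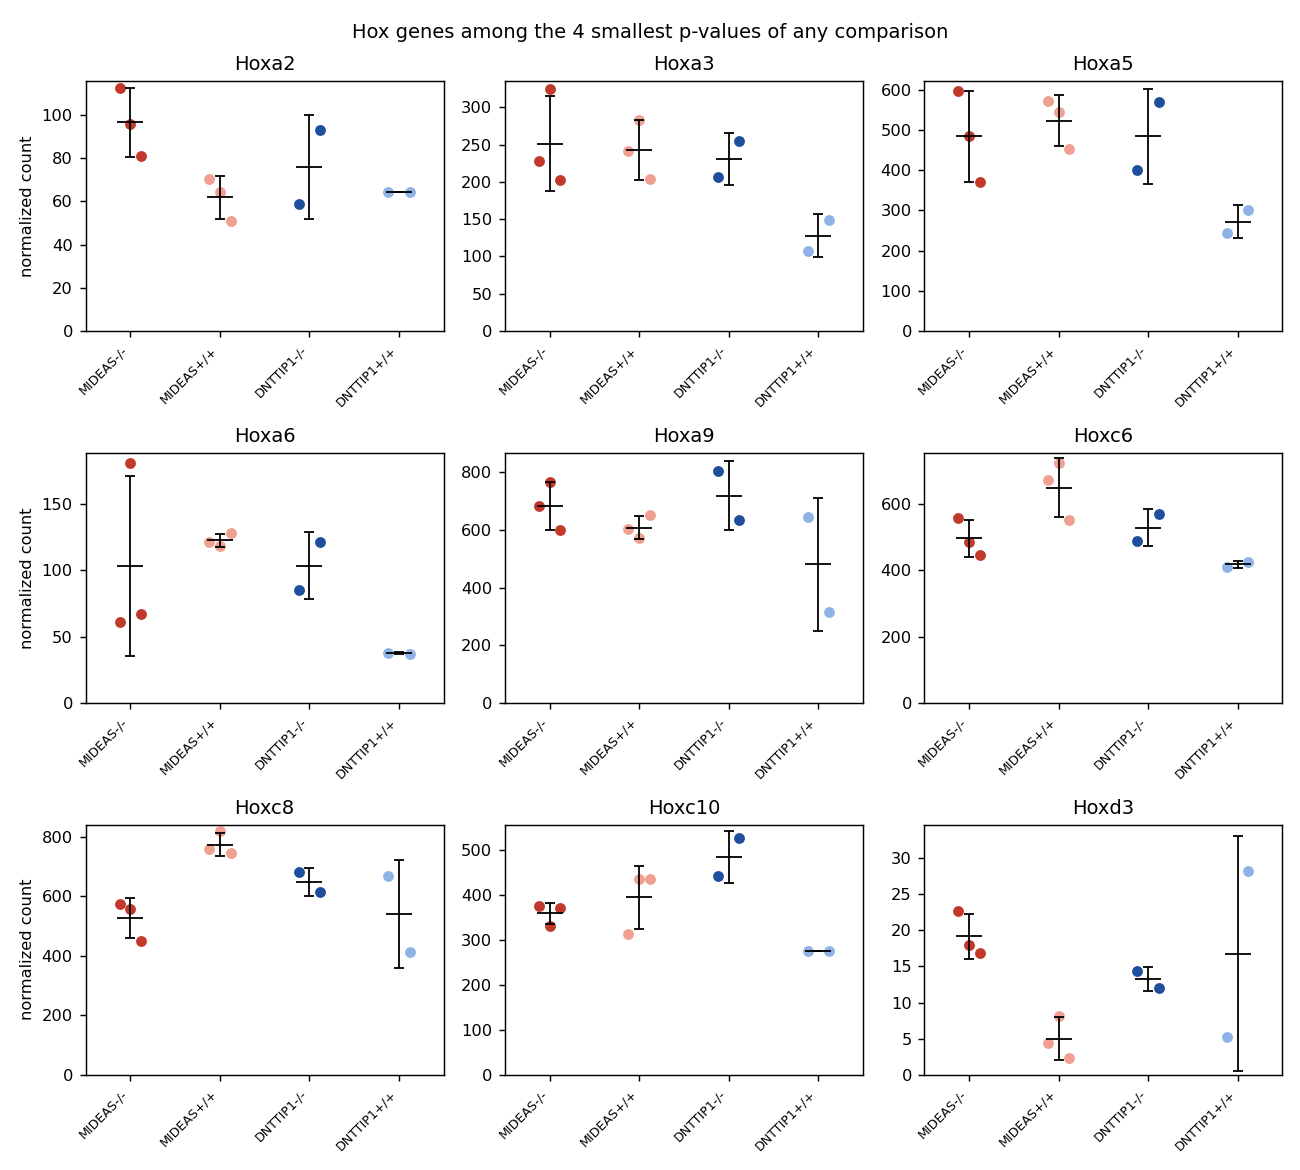
Normalized counts of the 9 Hox genes among the 4 smallest p-values of any comparison; points are libraries, the bar is the group mean and whiskers 1 SD (n = 3 for each MIDEAS group, 2 for each DNTTIP1 group). For Hoxa3, Hoxa5, Hoxa6, Hoxc6 and Hoxc10 the DNTTIP1+/+ lines are the lowest group, and for Hoxa2, Hoxc8 and Hoxd3 the MIDEAS-/- and MIDEAS+/+ lines do not overlap.

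The difference between the MIDEAS and the DNTTIP1 effect was negative for 31 and positive for 5 of 36 Hox genes, where 47.9% of all genes were positive, with a median of -0.65 on the log2 scale, against -0.02 over all genes. None passed by limma, nor did any of all 16227 genes (0%). By edgeR 0 Hox genes were called, as were 0 of all genes. DESeq2 called 0 Hox genes, where it called 7 of all genes positive and 5 negative. At an unadjusted p under 0.05, 9 Hox genes were negative and 0 positive, against 1.85% and 0.943% of all genes. Hoxc10 had log2 fold change -0.93, standard error 0.26, 95% interval -1.51 to -0.35, adjusted p = 0.99 by limma. Hoxa6 had log2 fold change -1.85, standard error 0.62, 95% interval -3.23 to -0.47, adjusted p = 0.99 by limma. Hoxc6 and Hoxc8 had differences of -0.72 and -0.86. No interval of the 36 lay within 1 of 0, so the 2 effects were compared with little precision.

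The mean of both effects called none of the 36 Hox genes by limma, where 6.23% of all genes were called (4.04% higher and 2.19% lower). At an unadjusted p under 0.05, 2 were higher and 0 lower, against 9.76% and 7.06% of all genes. Neither edgeR nor DESeq2 called a Hox gene. Of all 16227 genes, edgeR called 643 higher and 348 lower, and DESeq2 called 1071 higher and 660 lower. The median was 0.15, against -0.02 over all genes, 26 of 36 were positive, against 46.6% of all genes, and 28 of 36 intervals lay within 1 of 0. Without line 2 of DNTTIP1+/+ the median was 0.07, with 19 positive. In 0 Hox genes did the knockout lines lie apart from their own wild types on the same side in both families, against 5.09% of all genes above and 3.69% below. Hoxc10 had log2 fold change 0.34, standard error 0.13, 95% interval 0.05 to 0.63, adjusted p = 0.21 by limma. Hoxa3 had log2 fold change 0.44, standard error 0.19, 95% interval 0.03 to 0.86, adjusted p = 0.269 by limma. Hoxa9, a gene of the rib cage and limb that is also active in blood stem cells, had 683, 766 and 598 in MIDEAS-/- lines, against 603, 570.2 and 652 in MIDEAS+/+ lines, and 803 and 633 in DNTTIP1-/- lines, against 644 and 316 in DNTTIP1+/+ lines (log2 fold change 0.41, standard error 0.18, 95% interval -0.00 to 0.82, adjusted p = 0.299 by limma). Line 2 of DNTTIP1+/+ was the lowest of the 10 libraries for Hoxa9 and the other 9 lay between 570.2 and 803. Without line 1 of DNTTIP1+/+, so that line 2 stood alone for its group, Hoxa9 (log2 fold change 0.67, adjusted p = 0.0318 by limma) and Hoxa10 (0.49, adjusted p = 0.0887) were called. Without line 2 instead, the log2 fold change of Hoxa9 was 0.15 (adjusted p = 0.758 by limma).

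Within groups 9 to 13, no gene passed in either knockout in the main limma fit of 4 groups and all 10 libraries. The lines of 1 genotype often lay far apart. The group 13 genes Hoxa13 and Hoxd13 build the digits and the outer genitalia. Hoxd13 had 1063, 1239 and 1082 in MIDEAS-/- lines, against 1113, 792 and 1138 in MIDEAS+/+ lines, and 1167 and 648 in DNTTIP1-/- lines, against 1447 and 533 in DNTTIP1+/+ lines, in normalized counts. Hoxa13 had 318, 417 and 306 in MIDEAS-/- lines, against 271, 218 and 378 in MIDEAS+/+ lines, and 328 and 159.7 in DNTTIP1-/- lines, against 461 and 116 in DNTTIP1+/+ lines. In each DNTTIP1 genotype line 1 was far above line 2, and knockout and wild type overlapped in both families. Hoxd12, which lies beside Hoxd13 and is active in the digits, had 450.2, 319.8 and 251 in MIDEAS-/- lines, against 391, 267 and 195 in MIDEAS+/+ lines, and 355 and 139 in DNTTIP1-/- lines, against 424 and 78.0 in DNTTIP1+/+ lines. Hoxb13, a gene of the tail bud and prostate, had 0, 1.33 and 27.7 in MIDEAS-/- lines, against 22.3, 10.2 and 11.0 in MIDEAS+/+ lines, and 19.6 and 6.56 in DNTTIP1-/- lines, against 25.3 and 8.77 in DNTTIP1+/+ lines, which are few reads and include a 0. Lines 1 and 2 of MIDEAS-/- were the lowest 2 libraries for Hoxb13 and line 3 the highest.

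Group 11 builds the forearm and lower leg and the kidney. Hoxa11 had 507, 314 and 407 in MIDEAS-/- lines, against 349.9, 365 and 446 in MIDEAS+/+ lines, and 598 and 394 in DNTTIP1-/- lines, against 557 and 284 in DNTTIP1+/+ lines. Hoxd11 had 249, 467 and 298 in MIDEAS-/- lines, against 309.8, 284 and 419 in MIDEAS+/+ lines, and 234 and 196 in DNTTIP1-/- lines, against 234 and 125 in DNTTIP1+/+ lines. Line 1 of each DNTTIP1 genotype lay above line 2 for both genes, and knockout and wild type overlapped in both families. Part of the exon bases of Hoxa11 are shared with Hoxa11os on the other strand. Hoxc11, of the hindlimb, had 38.2, 37.9 and 124 in MIDEAS-/- lines, against 63.5, 112 and 115 in MIDEAS+/+ lines, and 134 and 74.4 in DNTTIP1-/- lines, against 117 and 93.6 in DNTTIP1+/+ lines. Hoxc12 had 5.16, 37.9 and 114 in MIDEAS-/- lines, against 8.92, 48.0 and 50.8 in MIDEAS+/+ lines, and 75.2 and 61.2 in DNTTIP1-/- lines, against 47.5 and 52.6 in DNTTIP1+/+ lines. Hoxc13, needed for hair and nails, had 16.5, 37.9 and 81.1 in MIDEAS-/- lines, against 6.69, 79.7 and 119.7 in MIDEAS+/+ lines, and 84.5 and 55.8 in DNTTIP1-/- lines, against 69.6 and 79.0 in DNTTIP1+/+ lines. In these Hoxc genes the MIDEAS lines spread widely, with line 1 of both genotypes low, and the intervals of Hoxc12 and Hoxc13 were the widest of the 36 genes after Hoxb13.

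Group 10 acts in the lumbar spine and thigh, and group 9 in the ribs. Hoxa10 had 1143, 996 and 968 in MIDEAS-/- lines, against 864, 909 and 1064 in MIDEAS+/+ lines, and 1154 and 849 in DNTTIP1-/- lines, against 1005 and 549 in DNTTIP1+/+ lines. Hoxd10 had 231, 219 and 170.1 in MIDEAS-/- lines, against 196, 226 and 214 in MIDEAS+/+ lines, and 189 and 139 in DNTTIP1-/- lines, against 177 and 115 in DNTTIP1+/+ lines. Line 2 of DNTTIP1+/+ was the lowest of the 10 libraries for both genes, and knockout and wild type overlapped in both families. Hoxb9 had 702, 849.8 and 972 in MIDEAS-/- lines, against 963, 1322 and 1051 in MIDEAS+/+ lines, and 836 and 1281 in DNTTIP1-/- lines, against 703 and 1012 in DNTTIP1+/+ lines. Hoxc9 had 261, 249 and 212 in MIDEAS-/- lines, against 256, 339 and 333 in MIDEAS+/+ lines, and 327 and 347 in DNTTIP1-/- lines, against 277 and 234 in DNTTIP1+/+ lines. Hoxd9 had 230.3, 162 and 134 in MIDEAS-/- lines, against 206, 161 and 182 in MIDEAS+/+ lines, and 171 and 151 in DNTTIP1-/- lines, against 159 and 84.8 in DNTTIP1+/+ lines. Among these, only Hoxc9 kept the DNTTIP1 groups apart, with DNTTIP1-/- above, and Hoxd9 overlapped in both families.

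The other genes of groups 1 to 8 described here were Hoxa4, Hoxa7, Hoxb2 to Hoxb8, Hoxc4, Hoxc5 and Hoxd8. None passed in any comparison. In MIDEAS-/- lines their log2 fold changes ranged from -0.44 (Hoxb7) to 0.24 (Hoxd8). In DNTTIP1-/- lines they ranged from 0.06 (Hoxd8) to 0.85 (Hoxb5). Hoxa4, Hoxa7, Hoxb6, Hoxb8 and Hoxc4 were among the 12 genes with both DNTTIP1-/- lines above both DNTTIP1+/+ lines, and Hoxb6 had an unadjusted p of 0.0438 by limma (adjusted p = 0.747).

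A split by line number ran through the DNTTIP1 family. It was noticed in these values and is given as a description. On the log2 scale, line 1 minus line 2 was positive in both DNTTIP1-/- and DNTTIP1+/+ for 9 of 9 Hoxa and Hoxd genes of groups 9 to 13, where 36.7% of all tested genes were positive in both. The difference was largest for Hoxd12 (1.35 in DNTTIP1-/- and 2.43 in DNTTIP1+/+) and Hoxa13 (1.03 in DNTTIP1-/- and 1.98 in DNTTIP1+/+). It was negative in both for 8 of 9 tested Hoxb genes, all but Hoxb13, where 38.1% of all genes were negative in both. Hoxb5 had -0.77 in DNTTIP1-/- and -1.07 in DNTTIP1+/+, and Hoxb9 -0.62 in DNTTIP1-/- and -0.52 in DNTTIP1+/+. Over the Hoxb cluster the median was -0.58 in DNTTIP1-/- and -0.50 in DNTTIP1+/+. The Hoxc cluster showed no such side, with 2 of 9 positive and 3 of 9 negative in both genotypes.

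**Figure D4:**
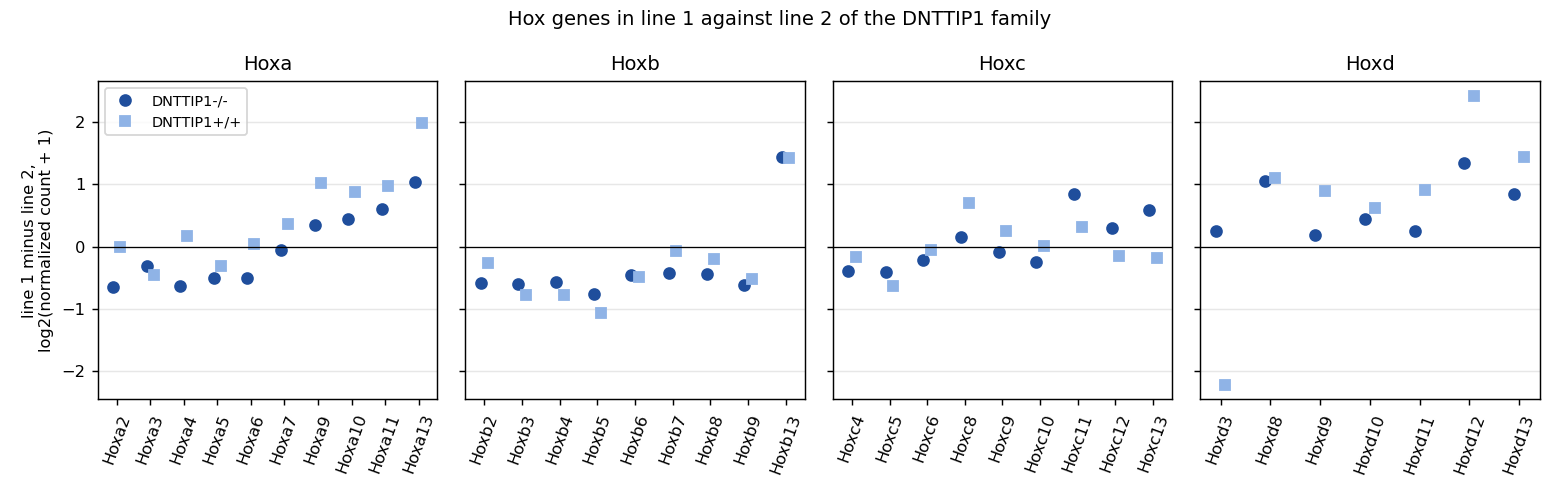
Line 1 minus line 2 in log2(normalized count + 1) for tested Hox genes in the DNTTIP1 family, DNTTIP1-/- as dark circles and DNTTIP1+/+ as light squares, by cluster. Hoxa and Hoxd genes of groups 9 to 13 lie above 0 and Hoxb genes other than Hoxb13 below 0 in both genotypes.

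The leading gene also differed by line: per kilobase of exon it was Hoxd13 in line 1 of both DNTTIP1 genotypes and Hoxb9 in line 2 of both. Of the 38 tested positional genes of limb and trunk mesenchyme, line 1 was above line 2 in both DNTTIP1 genotypes for 18 and below in both for 5, against 36.7% and 38.1% of all genes. Tbx4, one of these positional genes, and Evx2, which is not in that list, are given as examples, chosen after their values were seen. Evx2, the homeobox gene beside Hoxd13, had 122 and 45.9 in DNTTIP1-/- lines, against 149.7 and 27.3 in DNTTIP1+/+ lines, in normalized counts. Tbx4, which starts the hindlimb bud, had 850.1 and 346 in DNTTIP1-/- lines, against 933 and 273 in DNTTIP1+/+ lines. Line 1 was above line 2 in each genotype for both. The line number also went with sex: line 1 carried the Y chromosome and line 2 expressed Xist in both genotypes, and sex and line cannot be told apart. Within line number, DNTTIP1-/- exceeded DNTTIP1+/+ for 30 of 36 Hox genes in line 1 (median 0.25 on the log2 scale), against 50.3% of all genes, and for 31 of 36 in line 2 (median 0.50), against 49.2%.

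Hox proteins bind DNA with TALE homeodomain partners, and 9 of these were tested. None passed by limma in either knockout alone, where 5.65% of all genes did in MIDEAS-/- and 0.0308% in DNTTIP1-/- lines. In the mean of both effects 1 was higher, where 4.04% of all genes were. The median log2 fold change of the 9 in that mean was 0.26, against -0.02 over all genes. Of the 8 tested antisense and long non-coding RNAs of the clusters 0 passed by limma in any comparison, where at most 6.23% of all genes did. The smallest adjusted p was that of Hoxaas2 in the mean of both effects (log2 fold change 0.59, adjusted p = 0.276 by limma), and its exons overlap those of Hoxa3. Of 18 tested genes that flank the clusters, 0 passed in either knockout. In the mean of both effects 1 was lower, where 2.19% of all genes were. This was Snx10 near Hoxa (log2 fold change -0.69, adjusted p = 0.0487 by limma).

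Polycomb proteins keep Hox genes silent where they are not used, and Trithorax proteins keep them active. Of 28 Polycomb genes, 2 were higher and 1 lower in MIDEAS-/- lines by limma, where 3.36% and 2.29% of all genes were, and 0 passed in DNTTIP1-/- lines. Cbx8, a reader subunit of the Polycomb complex PRC1, had 494, 384 and 443 in MIDEAS-/- lines, against 254, 242 and 254 in MIDEAS+/+ lines, and 417 and 422 in DNTTIP1-/- lines, against 229.9 and 249 in DNTTIP1+/+ lines (log2 fold change 0.81, adjusted p = 0.022 by limma). Jarid2, which helps the complex PRC2 find its sites, rose in MIDEAS-/- lines (log2 fold change 0.80, adjusted p = 0.0479 by limma). Pcgf5, a subunit of a variant PRC1, fell (log2 fold change -1.21, adjusted p = 0.0398 by limma). Cbx8 in knockout lines of both families lay above all wild-type lines. In the mean of both effects 4 of the 28 Polycomb genes were higher and 1 lower, where 4.04% and 2.19% of all genes were. Cbx2, also a PRC1 reader, was among the higher (log2 fold change 0.62, adjusted p = 0.0566 by limma). Of 13 Trithorax and H3K27 demethylase genes, 0 passed in any comparison. Of all genes 5.65% passed in MIDEAS-/- lines, 0.0308% in DNTTIP1-/- lines and 6.23% in the mean of both effects, so 0 of 13 is near that share.

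Genes of retinoic acid and Gdf11 signalling act upstream of Hox genes in the embryo, and 15 were tested. In MIDEAS-/- lines 1 was higher by limma, where 3.36% of all genes were. This was Rdh10, the enzyme that makes retinal (log2 fold change 0.61, adjusted p = 0.0849 by limma). In DNTTIP1-/- lines 0 of the 15 passed. In the mean of both effects 2 were higher, where 4.04% of all genes were. Gdf11 was among them (log2 fold change 0.42, adjusted p = 0.0352 by limma). Of 38 positional genes of limb and trunk mesenchyme, 3 were higher and 1 lower in MIDEAS-/- lines by limma, where 3.36% and 2.29% of all genes were. In DNTTIP1-/- lines 0 passed by limma, where 0.0308% of all genes did. Dlx5, a homeobox gene of limb and skeleton, had 130.1, 193 and 217 in MIDEAS-/- lines, against 44.6, 27.6 and 77.4 in MIDEAS+/+ lines (log2 fold change 1.92, adjusted p = 0.0351 by limma). All MIDEAS-/- lines were above all MIDEAS+/+ lines. Its cluster partner Dlx6 rose as well (log2 fold change 2.30, adjusted p = 0.0429 by limma), and Tbx3, a limb factor, fell (log2 fold change -0.50, adjusted p = 0.0731 by limma).

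Markers of other cell types differed between the lines. The summed normalized counts of 13 fibroblast markers were 60737 to 75169 in MIDEAS-/- and 64961 to 78684 in MIDEAS+/+ lines, and 73127 to 73440 in DNTTIP1-/- and 66573 to 75698 in DNTTIP1+/+ lines, so all lines carried the labelled cell type. The 7 smooth muscle markers summed to 6548 to 10079 in MIDEAS-/- and 11314 to 17036 in MIDEAS+/+ lines, and to 7892 to 10544 in DNTTIP1-/- and 11515 to 13230 in DNTTIP1+/+ lines. The 11 markers of cartilage and bone summed to 6212 to 7455 in MIDEAS-/- and 4195 to 5881 in MIDEAS+/+ lines, and to 9592 to 10355 in DNTTIP1-/- and 6222 to 7703 in DNTTIP1+/+ lines. The smooth muscle sum was thus lower, and the cartilage and bone sum higher, in knockout lines of both families. The 6 adipocyte markers summed to 1663 to 3043 in MIDEAS-/- and 802 to 876 in MIDEAS+/+ lines, and to 1848 to 2620.3 in DNTTIP1-/- and 774 to 1780.0 in DNTTIP1+/+ lines. The 7 endothelial markers summed to 851 to 1192 in MIDEAS-/- and 649 to 890.3 in MIDEAS+/+ lines, and to 790.3 to 1352 in DNTTIP1-/- and 598 to 675 in DNTTIP1+/+ lines. The 9 markers of neurons, glia and neural crest summed to 2557 to 3478 in MIDEAS-/- and 4382 to 7700.0 in MIDEAS+/+ lines, and to 3220.0 to 5569 in DNTTIP1-/- and 3050 to 6080 in DNTTIP1+/+ lines. The 8 cell division genes summed to 8562 to 14166 in MIDEAS-/- and 9375 to 10805 in MIDEAS+/+ lines, and to 16027 to 17414 in DNTTIP1-/- and 12053 to 13443 in DNTTIP1+/+ lines. The 8 epithelial markers summed to 107 to 236 in MIDEAS-/- and 163 to 523 in MIDEAS+/+ lines, and to 245 to 399 in DNTTIP1-/- and 421 to 589.8 in DNTTIP1+/+ lines. Thus the adipocyte sum was also higher in knockout lines of both families. Neural markers lay lower in all MIDEAS-/- lines than in MIDEAS+/+ lines. In DNTTIP1-/- lines cell division genes and endothelial markers lay higher, and epithelial markers lower, than in DNTTIP1+/+ lines. Sums of skeletal muscle and of blood cell markers overlapped between knockout and wild type in both families. No marker of these lists was at 0 in all libraries, and their part in the Hox values was not tested.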

How the data were processed

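RNA-seq of 10 MEF lines was analysed. The authors trimmed reads with Trim Galore 0.4.5 and cutadapt 1.11, aligned them to mm10 with STAR 2.5.2b, removed duplicates with Picard and normalized the counts with DESeq2. Which read counter, strand setting and annotation they used is not given in the sources used here. Per the files, the deposited signal is a normalized count per gene, which is a whole read count divided by a size factor (100% of values whole within 0.01 read). Deposited tables of the authors' own comparisons (log2 fold changes, p-values, and a score for mean count and Wald statistic) were not used. Genes with a mean of at least 10 entered 1 limma 3.58.1 fit (trend and robust empirical Bayes, R 4.3.3) of 4 groups on log2(normalized count + 1), with Benjamini-Hochberg adjustment over 16227 genes and a threshold of 0.1. Fold changes are on that scale and understate those of low genes. The script was tested on simulated data. Alternatives included edgeR 4.0.16 and DESeq2 1.42.0 on recovered reads. Exon lengths came from GENCODE M21. Hoxd4 was named from its identifier. Members and lists were chosen with earlier results of these data known. Values in every library are given for the 4 Hox genes with the smallest p in each comparison, the leading gene of each cluster and groups 9 to 13. Of the pathway lists, most genes that passed are named, and marker lists are given as sums. Some genes are not reported here one by one, although counts over all members and lists include them.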

Additional observations from a re-analysis of the deposited data

How the results depend on the processing

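Under 21 to 23 alternatives a comparison, none of 419 fold changes of the Hox genes with the smallest p changed direction, and 13 passed the threshold where they had not. These genes were picked by p in the same data, and several settings leave a fold change as it is, so this does not test direction. With all 5 wild-type lines as controls, 22 of 36 Hox genes were positive in MIDEAS-/- lines (median 0.09). In the main fit 13 of 36 were (median -0.13). With 0 called by limma in MIDEAS-/- lines, 1 was called with separate fits per family, 1 by DESeq2 (Hoxc8 in both) and 0 to 2 when 1 line was left out, of which Hoxb13 passed without MIDEAS-/- line 3 (log2 fold change -3.26, adjusted p = 0.0968). In DNTTIP1-/- lines 1 was called by DESeq2, in the mean of both effects 0 to 2 when 1 line was left out, and between the wild types 3 by DESeq2 (Hoxa5, Hoxa6 and Hoxc6) and 0 to 1 when 1 line was left out (Hoxa5, adjusted p = 0.0973 by limma without MIDEAS-/- line 1). With line number as a replicate block, 2 were called in MIDEAS-/- lines (Hoxc8, adjusted p = 0.0477, and Hoxb9, 0.0942, by limma), 1 in the mean of both effects (Hoxa3, 0.0996) and 0 in the other comparisons. The numbers were not taken as pairs, since deviations of same-numbered lines correlated at 0.21, -0.11 and -0.05 over all genes in the MIDEAS family. This reason does not extend to the DNTTIP1 family, where they correlated at 0.66 and line number went with sex. With 2 lines a genotype, that value is the same for both pairs by construction. Over the 36 Hox genes alone, same-numbered lines correlated at 0.48, 0.09 and 0.33 in the MIDEAS family, and at 0.71 in the DNTTIP1 family. The cause of these differences was not tested. Separate fits gave no value for comparisons across families. With 2 or 3 lines a group, most DNTTIP1 intervals were wide.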
